A study of Mus musculus with 4 samples.

Results

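The 10 genes described here encode cell surface proteins by which mesenchymal stromal cells are sorted or defined: Thy1, Eng, Nt5e, Cd44, Vcam1, Mcam, Pdgfra, Pdgfrb, Lepr and Cd34. They were chosen by name, as 10 of 21887 protein-coding genes of the mouse RefSeq annotation. Each gene was described by the open chromatin regions (peaks) that lay in it or within 50 kb of either end, which came to 495 of the 455071 peaks of the 4 libraries. Overlapping peaks of different libraries were merged into sites, and 184 of 170558 sites lay in the windows of these genes.

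The data were made by ATAC-seq, in which the Tn5 transposase cuts and tags accessible DNA, so that a peak marks a stretch of chromatin open to the enzyme. The cells were articular chondrocytes taken from knees of C57BL/6 mice at postnatal day 0 to 4, grown in DMEM/F12 with fetal bovine serum and otherwise untreated. At passage 0 (P0, 2 libraries) they had been in culture for less than a day, and at passage 8 (P8, 2 libraries) they had been replated each time their number doubled, from 24000 to 48000 cells per square centimetre. The series set the passages side by side to follow the loss of the chondrocyte phenotype in monolayer culture. The labels do not say that the libraries of a passage came from separate animals or cultures, so p-values measure only the spread between these libraries, which may be technical. The peak names separate the libraries but carry no replicate number, and they are called A and B of each passage.

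Stromal cells of many tissues are recognised in culture by CD90 (Thy1), CD105 (Eng) and CD73 (Nt5e) on their surface together with the lack of blood and endothelial proteins such as CD34. The receptors for platelet-derived growth factor, the leptin receptor, CD146 (Mcam), VCAM1 and the hyaluronan receptor CD44 are further proteins used to sort stromal and skeletal progenitors from bone marrow and other tissues. Open chromatin at a gene's start or at distant sites around it often accompanies its use, but a peak is not a measure of transcript or protein.

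The libraries differed in depth and in number of peaks. The peak caller's genome-wide background, a measure of depth, came to 194 (P0 A), 162 (P0 B), 140 (P8 A) and 134 (P8 B) tags per 10 kb. The numbers of peaks were 145703, 119974, 89610 and 99784 in that order, and values below keep it. Sharing between libraries did not follow the passages alone. Sites with a peak in P0 A and P8 B and in no other library numbered 5283, against 1118 for P0 A with P8 A, 605 for P0 B with P8 A and 314 for P0 B with P8 B. Around the stromal markers 13 sites were of the first kind (7.07%, against 3.10% of all sites), and 1, 3 and 0 were of the others. The part that this sharing has in the results was not tested.

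Of the markers, 7 genes matched the RefSeq promoter table of GRCm38.p6, with 8 promoters (2 for Lepr). The 250 bases before the start of 5 of these genes are printed here because the libraries with a peak near the start differed among them. Within 1 kb of the start, Nt5e and Cd34 had a peak in all 4 libraries, Mcam had peaks at shifting positions, and Lepr and Pdgfra had peaks at P0 alone. A site covered the printed bases of Nt5e, and sites overlapped part of those of Cd34 and of the second start of Lepr. No library had a peak on the printed bases of Mcam, Pdgfra or the first start of Lepr. Sequences run 5′ to 3′ on the gene's strand, and capitals mark the letters GGGCGG on either strand, the core of sites for SP and KLF factors. The stretches lie at chr9:88327359-88327608 (plus strand) for Nt5e, chr9:44134408-44134657 (plus) for Mcam, chr4:101717157-101717406 and chr4:101717656-101717905 (both plus) for Lepr, chr5:75152001-75152250 (plus) for Pdgfra and chr1:194938571-194938820 (plus) for Cd34.
Nt5e promoter: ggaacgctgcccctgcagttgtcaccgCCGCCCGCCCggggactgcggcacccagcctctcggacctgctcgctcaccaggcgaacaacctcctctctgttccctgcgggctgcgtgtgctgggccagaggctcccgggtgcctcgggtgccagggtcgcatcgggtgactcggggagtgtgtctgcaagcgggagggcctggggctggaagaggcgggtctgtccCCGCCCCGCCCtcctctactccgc
Mcam promoter: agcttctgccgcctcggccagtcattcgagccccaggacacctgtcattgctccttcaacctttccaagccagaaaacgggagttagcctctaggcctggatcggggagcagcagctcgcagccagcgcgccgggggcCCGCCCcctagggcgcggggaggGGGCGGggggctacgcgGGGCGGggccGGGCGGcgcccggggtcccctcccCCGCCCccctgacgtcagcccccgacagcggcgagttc
Lepr first promoter: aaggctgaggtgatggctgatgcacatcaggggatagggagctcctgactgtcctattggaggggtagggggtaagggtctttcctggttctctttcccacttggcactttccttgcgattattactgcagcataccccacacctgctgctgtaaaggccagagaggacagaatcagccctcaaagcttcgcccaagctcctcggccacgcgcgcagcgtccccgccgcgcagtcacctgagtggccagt
Lepr second promoter: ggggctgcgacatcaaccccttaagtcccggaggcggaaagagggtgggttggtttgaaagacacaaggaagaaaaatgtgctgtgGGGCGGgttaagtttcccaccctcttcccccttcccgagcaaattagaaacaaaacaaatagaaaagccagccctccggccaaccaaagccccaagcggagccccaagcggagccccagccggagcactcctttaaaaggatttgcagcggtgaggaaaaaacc
Pdgfra promoter: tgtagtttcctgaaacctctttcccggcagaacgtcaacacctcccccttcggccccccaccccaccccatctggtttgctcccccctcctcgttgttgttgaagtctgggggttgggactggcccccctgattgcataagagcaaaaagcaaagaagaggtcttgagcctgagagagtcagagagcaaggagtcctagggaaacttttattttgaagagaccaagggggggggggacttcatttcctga
Cd34 promoter: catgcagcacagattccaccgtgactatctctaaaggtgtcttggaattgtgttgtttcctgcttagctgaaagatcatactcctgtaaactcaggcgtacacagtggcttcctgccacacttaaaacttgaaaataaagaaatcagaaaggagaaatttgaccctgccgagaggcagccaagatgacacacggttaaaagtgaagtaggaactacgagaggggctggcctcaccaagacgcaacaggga
The Nt5e and Mcam stretches were rich in G and C (72.0% and 73.6%) and held 21 and 25 CpG dinucleotides, against medians of 52.4% and 6 over 32851 promoters. The Cd34 stretch held 46.4% G and C and 6 CpG, that of Pdgfra 54.4% and 4, and those of Lepr 58.4% and 54.8% with 10 CpG each. GGGCGG stood 4 times before Nt5e, overlapping matches included, 5 times before Mcam and once before the second start of Lepr, so 3 of 8 member promoters held it, against 32.7% of all promoters. The letters TGANTCA (AP-1), GGAATG (TEAD), TGTGGT (RUNX) and ACAATG (SOX), searched on both strands, were in 0 of the 8, where 6.75%, 12.6%, 14.0% and 10.7% of all promoters held them. The E-box CANNTG, whose letters can overlap the others, was in 5 of 8, against 66.2% of all.

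At their starts the markers differed in which libraries held a peak, and the groups given here depended on the limit of 1 kb. A peak within 1 kb of the gene start was present in all 4 libraries for Nt5e, Cd44, Pdgfrb, Mcam and Cd34, 5 of 10 markers, where 59.5% of all protein-coding genes had one. Lepr and Pdgfra had a start peak in both P0 libraries and in no P8 library, 2 of 10 markers, against 3.72% of all genes. The opposite pattern was seen in 0 of 10 markers and 0.0731% of all genes. Of the remaining markers, Thy1 had start peaks in both P0 libraries and P8 A, Vcam1 in both P0 libraries and P8 B, and Eng in P0 B alone. The start peaks of Mcam came from different sites, none of them held by all 4 libraries. Start peaks in both P0 libraries alone were also seen for genes of other lists described below. They were found at 2 of 8 pericyte and smooth muscle markers, 2 of 15 chondrocyte markers and 2 of 19 other stromal markers. Of 11 blood and macrophage markers 1 had them. Of 25 ligands and partners, 9 fibroblast and 8 endothelial markers, 0 did. In these bulk libraries, a change in the share of cells and a change in accessibility per cell cannot be told apart. The start of Thy1, Pdgfrb and Vcam1 was taken as either end of the gene, since no strand was used for them.

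**Figure D1:**
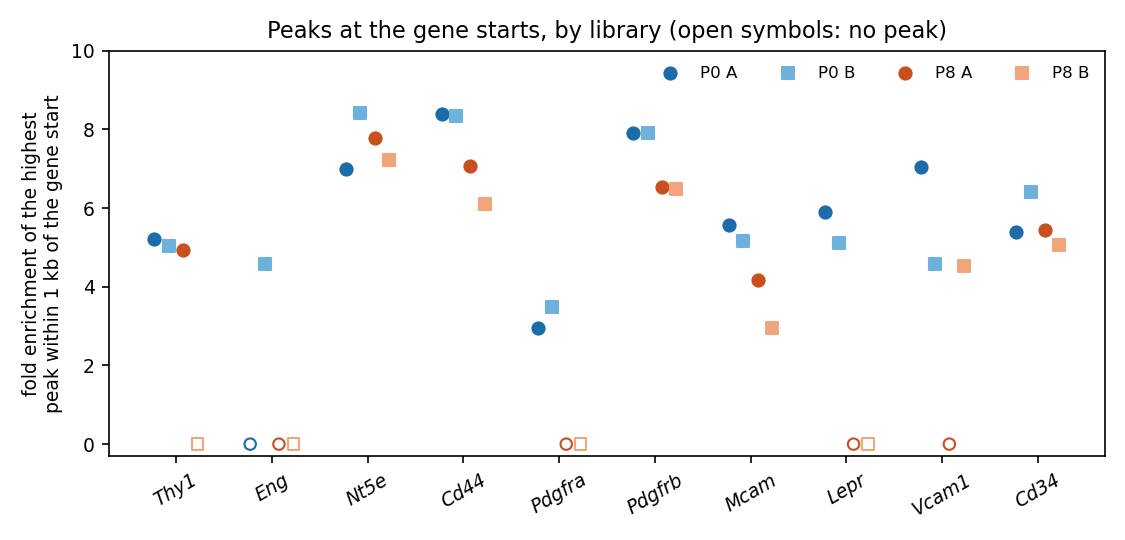
Fold enrichment over local background (vertical axis) of the highest peak within 1 kb of the start of each marker gene, in each of the 4 libraries; open symbols at 0 stand for libraries without a peak there. Nt5e, Cd44, Pdgfrb, Mcam and Cd34 have filled symbols in all 4 libraries, while Lepr and Pdgfra have them at P0 only.

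Among the 3 proteins that define stromal cells, the start of Nt5e, the ecto-nucleotidase that makes adenosine from AMP, was the most open. Its site at chr9:88326983-88328034 covered the printed promoter and had a fold enrichment, the summit's tags over the local background, of 7.00 and 8.41 at P0 and of 7.79 and 7.23 at P8. The passages overlapped in fold enrichment. The pileup at its summit, a tag count that is not scaled for depth, fell from 74 and 73 to 35 and 37 tags without overlap, so the local background that divides it was higher at P0 too. Centred on each library's median, the log2 fold enrichment was 0.24 higher at P8 (SE 0.19, limma adjusted p = 0.458), while the log2 pileup was −0.39 from P0 to P8 (SE 0.14, adjusted p = 0.0363), so the direction depended on the measure.

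The start of Eng, the co-receptor of the TGF-β family called endoglin, had a peak in P0 B alone, 2 bp upstream, with a fold enrichment of 4.58. A site 1899 bp upstream of Eng, chr2:32644555-32644696, was held by both P0 libraries, at 6.54 and 6.87, and by neither P8 library. For Thy1, a small GPI-anchored glycoprotein, a peak covered the lower end of the gene in P0 A (5.23), and a second site 243 bp beyond the upper end was held by P0 B (5.03) and P8 A (4.94). P8 B had no peak at either end of Thy1, and these values lay close to each other across the passages.

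Of the adhesion proteins, Cd44, the receptor for the cartilage polysaccharide hyaluronan, had a start site at chr2:102900894-102901938 with a fold enrichment of 8.38 and 8.35 at P0 and 7.08 and 6.09 at P8. The P8 values were both lower as deposited, but after centring the difference was −0.08 (SE 0.19, limma adjusted p = 0.834). Mcam, an adhesion protein of pericytes and endothelium, had a highest start peak of 5.58 and 5.16 at P0 and 4.17 and 2.96 at P8. The first 3 of these values came from a site 716 bp into Mcam, chr9:44135374-44135935, and that of P8 B from chr9:44134174-44134257, 401 bp upstream. Vcam1, the ligand of α4 integrins, had 7.04 and 4.58 at P0 at the upper end of the gene (chr3:116129206-116129693) and no P8 peak at that site, but at a second site, chr3:116128814-116129071, 617 bp inside that end, P0 A had a peak of 5.78 and P8 B one of 4.53.

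Of the growth factor receptors, Pdgfra had the weakest start. Its site chr5:75151247-75151379, at the lower end of the gene and 872 bp before the start in the promoter table, reached 2.95 and 3.48 at P0 with pileups of 25 and 21. A site 1998 bp before the start, chr5:75149944-75150253, had 4.45 and 5.00 at P0 and 3.41 in P8 A. With the limit widened to 3 kb, Pdgfra had a peak in all 4 libraries, Lepr had one in P8 B as well, and Eng alone (1 of 10 markers, against 3.89% of genes) had peaks at P0 only. Pdgfrb, whose lower end lies on the predicted gene Gm52351, had 7.91 and 7.90 at P0 and 6.54 and 6.49 at P8. The groups did not overlap as deposited, and after centring they differed by −0.01 (SE 0.19, limma adjusted p = 0.984). Lepr, the leptin receptor that marks stromal cells of adult bone marrow, had a site at each of its starts, chr4:101717412-101717693 with 5.90 and 5.11 at P0 and chr4:101717865-101718059 with 5.84 and 4.68 at P0. Neither P8 library had a peak there, and the pileups behind the P0 peaks were low, 14 and 11 tags at the first site. Cd34, the sialomucin of blood progenitors and endothelium that the usual definition of stromal cells lists as absent, had a modest start peak in every library, 5.38 and 6.41 at P0 and 5.44 and 5.05 at P8 (chr1:194938663-194939108; centred difference 0.11, SE 0.21, limma adjusted p = 0.780). With a peak required on the start itself, Cd34 had one in both P0 libraries and in no P8 library, as Lepr did, and Pdgfra and Mcam were in neither group, so that 3 markers (Nt5e, Cd44 and Pdgfrb) had one in all 4 libraries. By this limit 47.3% of all genes had a peak in all 4 libraries and 4.13% at P0 alone.

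The number of peaks around the markers was higher at P0, at a ratio near that of the libraries' totals. The windows held 160 and 126 peaks at P0 and 93 and 116 at P8, a ratio of P0 to P8 of 1.37 ± 0.31 (SD, n = 2 libraries per passage). Over all peaks the ratio was 1.41. Both P0 libraries exceeded both P8 libraries for Eng, Nt5e, Pdgfra and Mcam, 4 of 10 markers, and 44.9% of all protein-coding genes did so. The reverse held for 0 of 10 markers and 3.67% of genes. The median ratio of P0 to P8 was 1.39 over the markers and 1.29 over the 19333 genes with peaks at both passages. With 2 libraries against 2 the exact two-sided permutation test cannot give a p below 0.333, so no marker could pass. When the same number of top peaks was taken from every library the ratio was 0.99, and 2 of 10 markers (Nt5e and Pdgfra, no longer Eng and Mcam) were higher at P0 without overlap, where 15.0% of genes were. With the libraries matched on background the ratio was 1.32, the same 4 markers were higher at P0, against 43.4% of genes, and the starts of Pdgfra and Lepr still had peaks at P0 alone. With P0 B left out, 9 of 10 markers were higher at P0, where 66.4% of genes were.

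**Figure D2:**
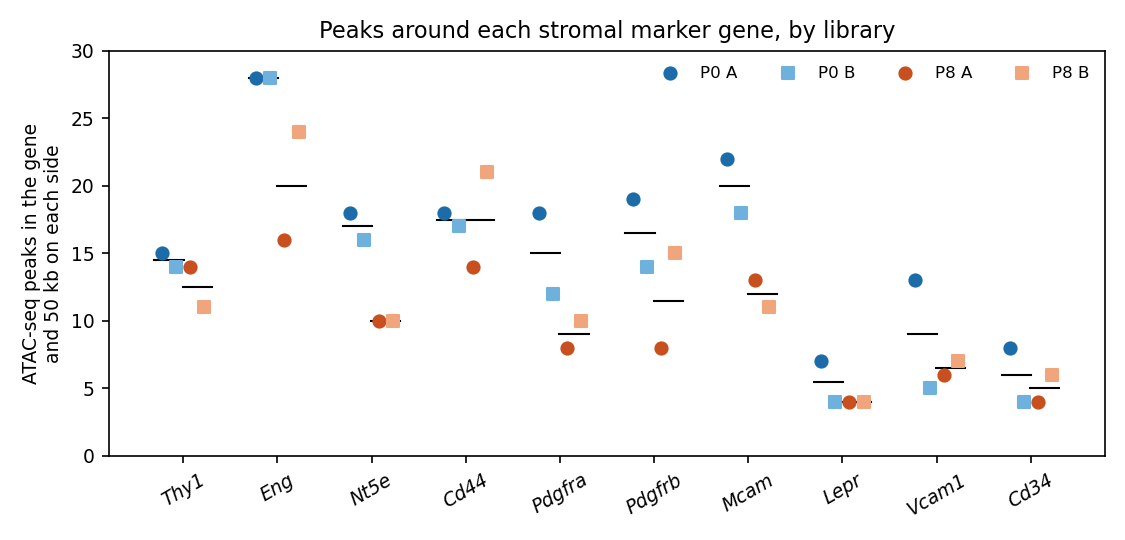
Number of peaks in each marker gene and 50 kb on each side (vertical axis) in each library, with a black line at the mean of the 2 libraries of a passage. Eng, Nt5e, Pdgfra and Mcam have both P0 libraries above both P8 libraries, and the passages overlap for the other 6 genes.

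Nt5e (chr9:88327609-88372089) had 18 and 16 peaks at P0 and 10 and 10 at P8, the highest ratio of the markers at 1.70. Pdgfra (chr5:75151322-75198206) had 18 and 12 against 8 and 10, and Mcam (chr9:44134658-44142727) 22 and 18 against 13 and 11, a ratio of 1.67 each. Eng (chr2:32646595-32682669) had 28 in each P0 library and 16 and 24 at P8. For Nt5e and Mcam the means of the passages lay farther apart than the libraries within either passage did, and for Eng and Pdgfra they lay as far apart as the P8 and the P0 libraries, respectively. With equal peak numbers the difference of the means went from 8 to 0 peaks for Mcam, from 8 to 1.5 for Eng, from 7 to 3 for Nt5e and from 6 to 1.5 for Pdgfra. Over sites nearest to the marker it was 3 for Mcam and 3.5 for Eng. Over the gene and 3 kb on each side it was 1.5 for Mcam, 3.5 for Eng, 4 for Nt5e and 3.5 for Pdgfra. Leaving out P8 A took the difference of Eng to 4 peaks and leaving out P8 B to 12, and that of Pdgfra was 3 without P0 A and 9 without P0 B. For Nt5e it ran from 6 to 8 and for Mcam from 6 to 10 when each library was left out.

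Cd44 (chr2:102811141-102901669) had 18 and 17 peaks at P0 and 14 and 21 at P8, equal means with the P8 libraries on either side of P0. Pdgfrb had 19 and 14 against 8 and 15, and Thy1 (chr9:44043384-44048579) 15 and 14 against 14 and 11. In these 3 genes the counts of the passages overlapped or met. Vcam1 (chr3:116110020-116129688) had 13 and 5 peaks at P0 and 6 and 7 at P8, so that P0 A alone was high. Cd34 (chr1:194938821-194961292) had 8 and 4 against 4 and 6, and Lepr (chr4:101717137-101815352), the longest of the genes at 98216 bp, had 7 and 4 against 4 and 4. With P0 A left out the means of Vcam1 and Cd34 were higher at P8, by 1.5 and 1 peaks, and that of Lepr was equal at both. The difference of Pdgfrb was then 2.5 peaks. Without P0 B the means were higher at P0 by 6.5 peaks for Vcam1 and by 3 each for Cd34 and Lepr. Without P8 A the difference of Pdgfrb went from 5 to 1.5 peaks, that of Cd34 was 0, and P0 minus P8 was −3.5 for Cd44, while without P8 B it was 3.5 for Cd44, 8.5 for Pdgfrb and 2 for Cd34, and the difference of Thy1 went from 2 to 0.5. With equal peak numbers the means of Thy1, Pdgfrb, Lepr, Vcam1 and Cd34 turned to higher at P8, P0 minus P8 being −1, −2.5, −1, −1 and −0.5 peaks. That of Thy1 was −0.5 with 20 kb windows and −0.5 over sites nearest to it, and that of Cd34 was −2.5 with 100 kb windows.

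The windows were not alike in how much of the open chromatin was nearest to the marker itself. All 21 sites of Pdgfra, all 13 of Vcam1, 19 of 21 of Cd44 and 16 of 20 of Nt5e had the marker as their nearest protein-coding gene. For Eng this was so of 7 of 30 sites, with 7 other genes in its window, for Mcam of 8 of 27 and for Thy1 of 4 of 16. The windows of Thy1 and Mcam overlap and share 6 sites, all nearest to Usp2. The median number of sites per window was 20.5 over the markers and 13 over all genes, and Cd34 had the fewest, 7.

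Sites of all 4 libraries and sites of both P0 libraries alone took shares of the markers' sites whose intervals held the share over all sites, while some mixed pairs were more frequent around the markers. All 4 libraries had a peak at 63 of 184 sites (34.2%, 95% Wilson interval 27.8 to 41.4%), against 32.4% of all sites. Both P0 libraries and no P8 library had one at 26 sites (14.1%, 9.83 to 19.9%), where 17.1% of all sites had this pattern. Both P8 libraries and no P0 library had one at 1 site (0.543%), against 1.82% of all sites. P0 A with P8 B held 7.07% against 3.10%, as given above, and P0 B with P8 A 1.63% against 0.355%. A single library held 53 sites (28.8%), 27 of them in P0 A. P0 A alone held 14.7% of the markers' sites, against 17.5% of all sites, and P0 B alone 5.98% against 5.69%. P8 A alone held 3.26% against 5.27%, and P8 B alone 4.89% against 4.57%. The intervals cover counting error only, and neighbouring sites of a gene are not independent.

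**Figure D3:**
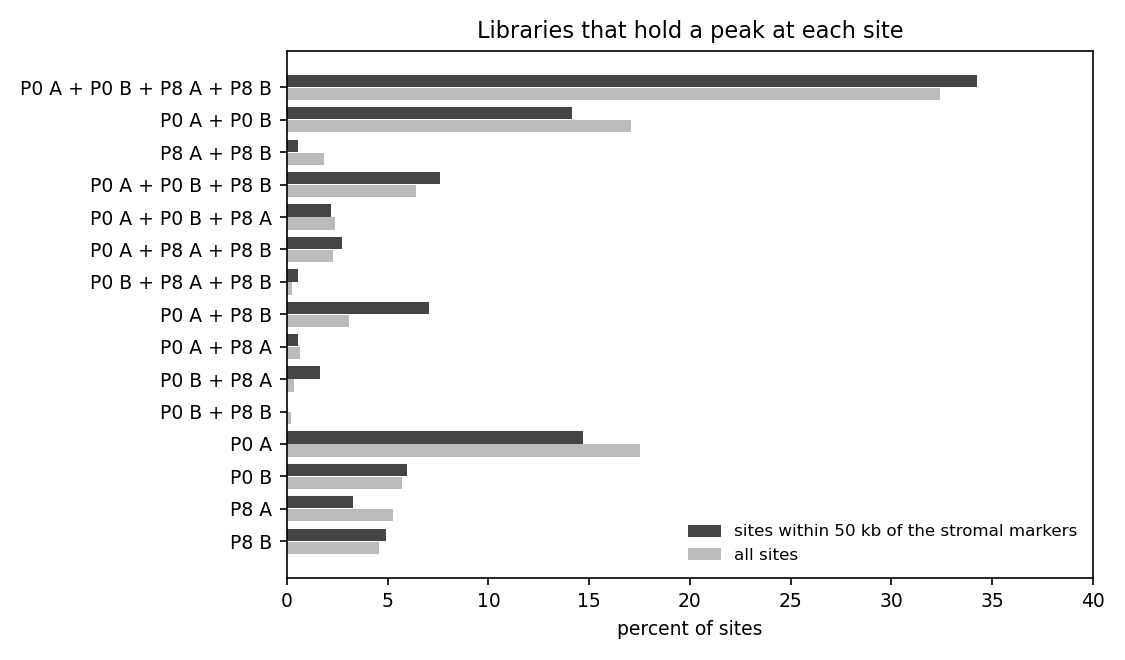
Percent of the 184 sites around the stromal markers (dark bars) and of all 170558 sites (light bars) by the libraries that hold a peak (vertical axis). The bars for all 4 libraries stand at 34.2% and 32.4%, and those for both P0 libraries alone at 14.1% and 17.1%; P0 A with P8 B is the largest of the mixed pairs in both sets.

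Sites held at P0 alone were strongest at Nt5e and Pdgfra. In Nt5e, a site 15810 bp into the gene, chr9:88343419-88343805, had a fold enrichment of 7.84 and 8.37 in the P0 libraries with pileups of 27 and 23, and a second inside the gene, chr9:88361503-88361869, had 5.33 and 4.98. Another, chr9:88416020-88416527, had 11.2 and 7.32 but lay 43931 bp beyond the gene's end and was nearest to Snx14. Past the end of Pdgfra by 560 bp, chr5:75198766-75199007 had 9.47 and 9.15, and 25758 bp past it chr5:75223964-75224213 had 9.11 and 6.87. The median height of such sites was 4.77 over the markers and 5.02 over all sites. The sole site of both P8 libraries alone was also at Pdgfra, chr5:75157263-75157343, 5012 bp into the gene, at 3.25 and 2.79.

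Other sites were held by both P0 libraries alone. Cd34 had one 12798 bp upstream, chr1:194925811-194926023, at 5.80 and 7.32. Besides the upstream site given above, Eng had chr2:32621256-32621639 at 4.79 and 4.75, nearest to Ak1, and chr2:32720612-32720958 at 4.78 and 3.83, nearest to Sh2d3c. These sites had another gene nearer than Eng, while a further one, chr2:32666104-32666209 at 4.14 and 4.12, lay inside Eng. Pdgfra had another pair inside the gene, chr5:75163446-75163572 at 3.69 and 5.03 and chr5:75163673-75163884 at 4.13 and 3.66, and Nt5e had chr9:88295931-88296140 upstream at 3.01 and 4.84. Cd44 had 1 such site of 21, chr2:102805363-102805523, 5618 bp past its end, at 3.73 and 4.58. Pdgfrb had 4, the highest of them 687 bp beyond the upper end of the gene at 4.21 and 6.42, and the other 3 had 5.79 and 4.13, 4.14 and 3.66, and 4.97 and 3.66. Neither P0 library was the higher one throughout. Vcam1 had, besides its upper end, chr3:116148817-116149009 at 3.31 and 5.03, and Mcam had 1 of its own, chr9:44135006-44135249, 348 bp into the gene at 3.78 and 4.21. The windows of Thy1 and Mcam share chr9:44093758-44093890 (4.80 and 4.74) and chr9:44088253-44088367 (3.91 and 2.77), both nearest to Usp2.

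The strongest sites around the markers were open in all 4 libraries, except at Lepr. The highest mean fold enrichment belonged to a site in the Eng window at chr2:32727374-32727937, with 17.8 and 16.1 at P0 and 13.8 and 15.2 at P8, but it lay 44705 bp past the end of Eng and was nearest to Sh2d3c. Within Eng, chr2:32680003-32680470 reached 13.6, 14.1, 12.0 and 11.4. Nt5e had its highest site 30569 bp upstream, chr9:88296241-88297040, at 13.1, 12.5, 7.31 and 9.91. Here the P8 values were both lower, and the centred log2 difference was −0.32 (SE 0.16, limma adjusted p = 0.215), while on pileup it passed at −0.76 (SE 0.16, adjusted p = 0.000985).

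Cd44 had its highest site 14868 bp upstream, chr2:102916533-102916914, at 10.8, 11.0, 11.1 and 8.99, with the passages overlapping. Cd34 had it 14803 bp past its end, chr1:194976095-194977129, at 11.0, 13.2, 10.3 and 10.2. For Pdgfra it lay inside the gene, chr5:75183739-75184649, at 10.5, 8.95, 9.47 and 9.76, and for Vcam1 also inside, chr3:116114440-116114832, at 11.0, 8.88, 5.99 and 8.15. None of these 4 sites passed the test of fold enrichment, but on pileup that of Pdgfra passed as higher at P8 after centring (0.45, SE 0.15, limma adjusted p = 0.0283), with 40 and 31 tags at P0 and 31 and 31 at P8. The highest site of Pdgfrb lay inside the gene at 9.53, 10.3, 7.78 and 6.84. For Thy1 it was chr9:44066740-44067280 at 10.7, 13.0, 7.39 and 8.60, and for Mcam chr9:44113322-44113783 at 9.13, 10.4, 6.93 and 6.98, nearest to Usp2 and Rnf26. No site of Lepr was held by all libraries, and its highest, 17717 bp upstream at chr4:101699525-101699690, had 5.38 in P0 A, 5.44 and 6.57 in the P8 libraries and no peak in P0 B.

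**Figure D4:**
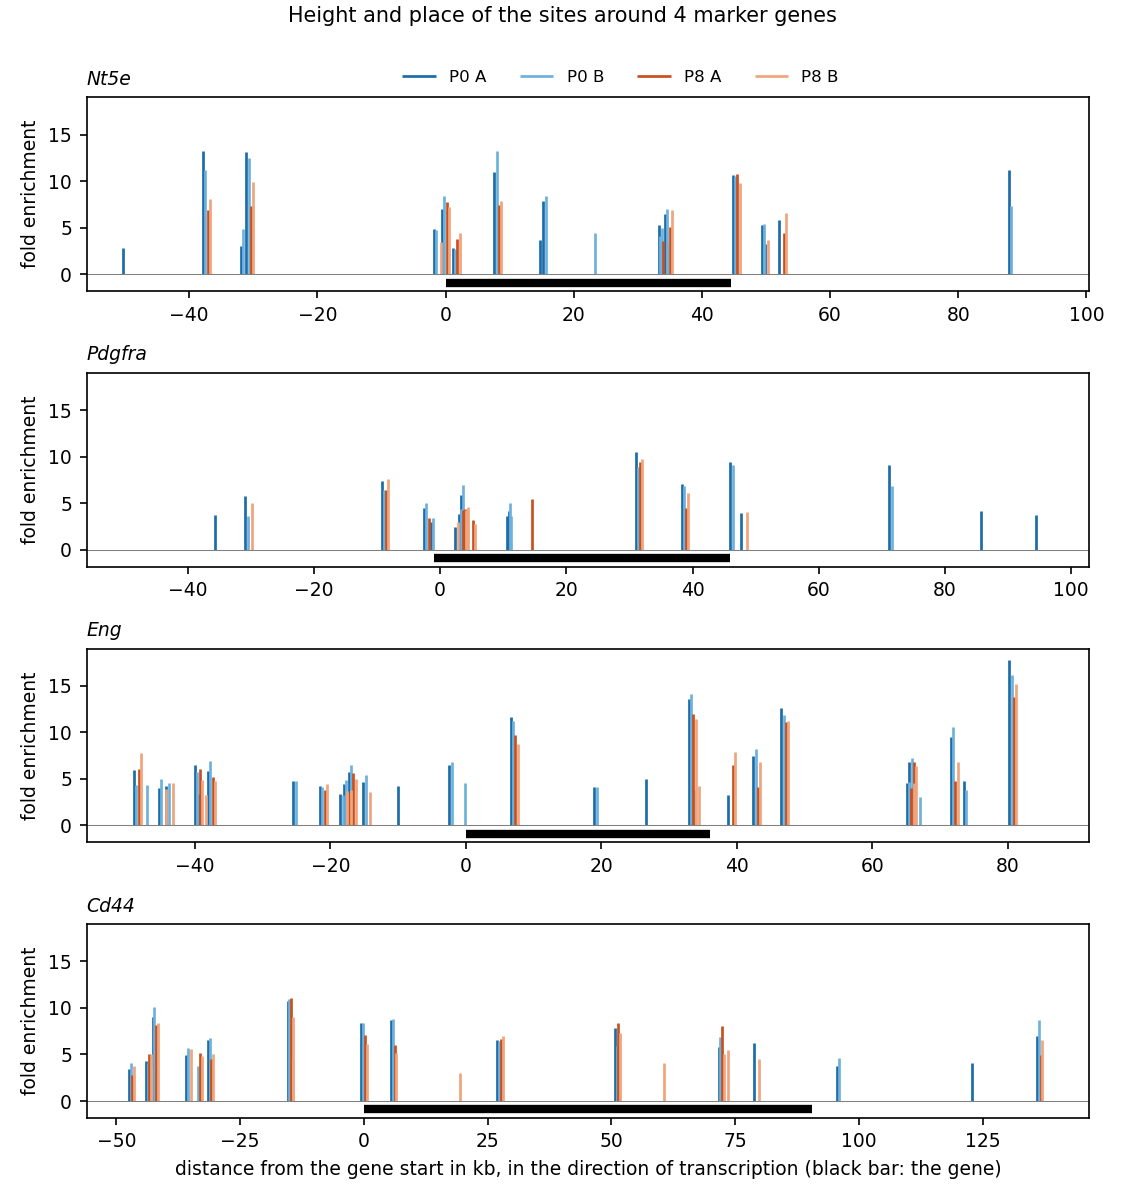
Fold enrichment (vertical axis) of every peak around Nt5e, Pdgfra, Eng and Cd44 against the distance from the gene start in kb, one line per peak coloured by library and set side by side within 1 kb so that all can be seen; the black bar is the gene. Blue lines without orange beside them, such as those 15810 bp into Nt5e and just past the end of Pdgfra, are sites held at P0 alone, while Cd44 has all 4 colours at most sites.

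Where all 4 libraries held a peak, its height could be tested. The limma fit of log2 fold enrichment was made over all 55294 such sites, each library centred on its own median. These medians were 3.05 and 3.02 at P0 and 2.69 and 2.84 at P8, so values below are relative to a general fall of fold enrichment from P0 to P8. Of 63 sites around the markers 3 passed an adjusted p of 0.05 as higher at P8 and 1 as higher at P0, against 6.23% and 3.76% of all sites. At an unadjusted p below 0.05 there were 13 (8 higher at P8, 5 higher at P0), where 26.4% of all sites passed. The median difference over the markers' sites was 0.03, from −0.64 to 0.83.

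**Figure D5:**
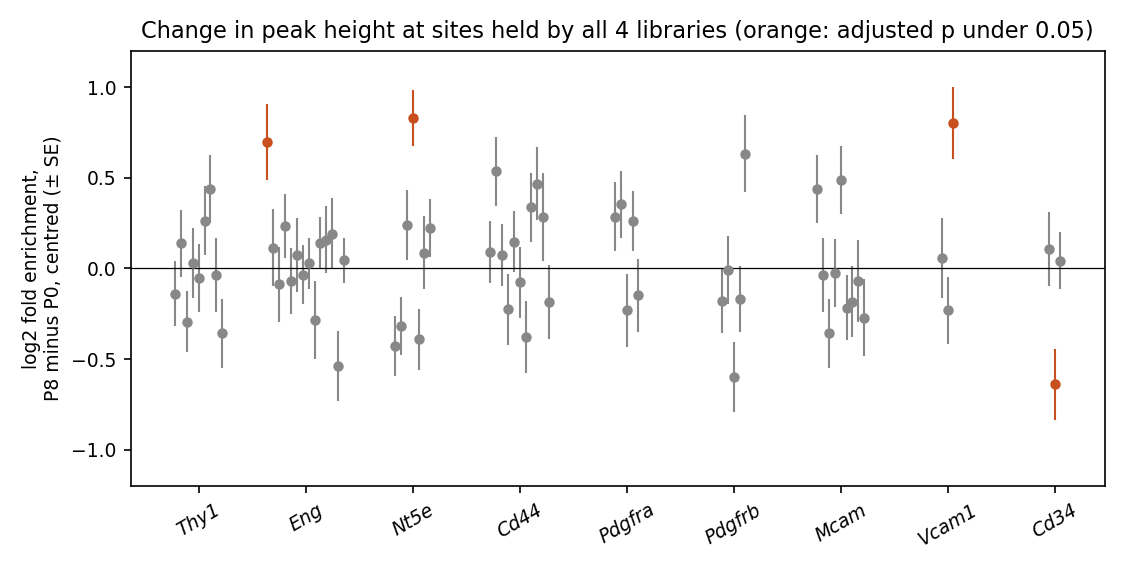
Centred log2 fold enrichment at P8 minus P0 (points) with its standard error (bars) for the sites of each marker that all 4 libraries held, ordered along the window; sites shared by Thy1 and Mcam are drawn in both. The 4 orange points passed an adjusted p of 0.05: Eng, Nt5e and Vcam1 lie above 0 and Cd34 lies below it.

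The largest rise was in Nt5e, 1686 bp from its start at chr9:88329295-88329584. Its fold enrichment went from 2.82 and 2.71 to 3.77 and 4.41 with no overlap, a log2 difference of 0.83 (SE 0.15, limma adjusted p = 0.00457). On the pileup the difference was 0.15, and it did not pass. In Vcam1 the site chr3:116119153-116119530, inside the gene, rose from 5.28 and 5.24 to 7.80 and 7.38 (0.80, SE 0.20, adjusted p = 0.0172). In the Eng window the site chr2:32597733-32598096, 48499 bp upstream and nearest to St6galnac4, had 5.93 and 4.39 at P0 and 6.06 and 7.75 at P8 (0.70, SE 0.21, adjusted p = 0.0416), with P0 A and P8 A close to each other.

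The site that fell lay 877 bp past the end of Cd34, at chr1:194962169-194962511. It had 8.69 and 9.15 in the P0 libraries and 4.45 and 5.05 in the P8 libraries, without overlap, a log2 difference of −0.64 (SE 0.19, limma adjusted p = 0.0425). On pileup this difference was −0.56 and with the mean of peaks −0.48, and it did not pass (limma adjusted p = 0.0966 and 0.184). Just outside the threshold stood 2 sites in the Pdgfrb window, both nearest to Csf1r, at −0.60 (SE 0.19, adjusted p = 0.0562) and 0.63 (SE 0.21, adjusted p = 0.0636). On pileup the latter passed at 1.33 (SE 0.26, adjusted p = 0.000308). Leaving out either P0 library ended all 4 calls; the spread then came from the P8 libraries, and the lone P0 library was assumed to vary like them. Without P0 A the fit called 0 of 55749 sites, of which 9848 had an unadjusted p below 0.05, and the 4 differences were 0.84 (Nt5e), 0.78 (Vcam1), 0.89 (Eng) and −0.70 (Cd34). Without P0 B they were 0.77, 0.76, 0.44 and −0.64, and a single other site around the markers was called. The site of Eng also missed the threshold without P8 B (0.56), and those of Vcam1 (0.71) and Cd34 (−0.60) without P8 A. Without centring the calls over all sites went from 3447 higher at P8 and 2079 higher at P0 to 589 and 6516, and those around the markers from 3 and 1 to 1 and 7. The calls of Vcam1 (0.53, limma adjusted p = 0.0823) and Eng (0.43, 0.210) ended without centring, as they did after quantile normalization (0.71, 0.0526 and 0.61, 0.103), and that of Eng with the mean of peaks (0.70, 0.0507).

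The pileup gave a partly different set. Its median over the sites of all 4 libraries was 29 and 24 tags at P0 and 16 and 18 at P8, and each library was again centred. Around the markers 9 sites passed as higher at P8 and 5 as higher at P0, against 13.7% and 8.93% of all sites, 2 of them (Eng and Vcam1) called by fold enrichment too. The sign differed between the measures at 17 of 63 sites. Of the 9, 4 lay in the Cd44 window, where the deposited tags of the passages overlapped or met at 3 sites and were higher at P8 at the other, while the library medians were lower at P8. At that other site, chr2:102945165-102945604, 43500 bp upstream of Cd44, they were 21 and 16 at P0 and 24 and 25 at P8 (log2 difference after centring 1.05, SE 0.20, limma adjusted p = 0.000227). Of the 5, 4 lay in the Nt5e window, the start among them. Inside Nt5e, chr9:88335771-88336260 had 40 and 42 tags at P0 and 14 and 15 at P8 without overlap (−0.86, SE 0.18, adjusted p = 0.0008), and its fold enrichment was 11.0 and 13.3 against 7.39 and 7.88 (−0.39, adjusted p = 0.142). The other of the 5, chr2:32718710-32719123, had 48 and 46 tags at P0 and 10 and 14 at P8 (−1.35, SE 0.19, adjusted p = 4.79e-06) and was nearest to Sh2d3c, in the Eng window. These sites were named after their values were seen.

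The ligands and partners of these proteins were described in the same way. Of 25 such genes, 17 had both P0 libraries above both P8 libraries and 0 the reverse, where 44.9% and 3.67% of all genes did; the median ratio was 1.47. Pdgfd, a ligand of the PDGF receptors, had 19 and 16 peaks at P0 and 4 and 2 at P8, and Pdgfc had 22 and 19 against 13 and 14. Of the hyaluronan synthases, Has1 had 19 and 15 against 9 and 8 and Has2 16 and 14 against 8 and 12, while Has3 had 11 and 8 against 7 and 12, with equal means. Another ligand, Pdgfb, had 14 and 10 against 7 and 10. The passages were apart for Pdgfd, Pdgfc, Has1 and Has2, overlapped for Has3 and met for Pdgfb. Itga4, the integrin chain that binds VCAM1, had 9 and 7 against 3 and 4. Of the TGF-β receptors with which endoglin acts, Tgfbr2 had 19 and 18 against 7 and 11, and Tgfbr3 45 and 38 against 27 and 30, while Tgfbr1, at 16 and 7 against 9 and 10, overlapped. The others higher at P0 included Acvrl1, with 22 and 18 against 14 and 13, and Gdf2, Tgfb1, Pdgfa, Entpd1, Adora2a, Itgb3, Lgals9 and Selp. No start peak of this list passed the test.

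Markers of other cells give the setting in which these values stand. Of 15 chondrocyte markers, 14 had more P0 peaks without overlap (44.9% of all genes), or 9 with equal peak numbers (15.0%), with a median ratio of 1.87 and 493, 403, 225 and 276 peaks by library. Of these, Sox5 had 79 and 59 against 32 and 38. The chondrocyte genes Col2a1, Acan and Sox9 had a start peak in all 4 libraries. Where a gene had several sites of all 4 libraries within 1 kb of a start, the one of lowest p is given here. Such sites of Col2a1 (1 of 2, at the lower end of the gene, since no strand was used for it), Col9a3 and Col11a2 (1 of 2) were higher at P8 after centring by 0.57, 0.87 and 0.55 on the log2 scale (SE 0.13, 0.18 and 0.15, limma adjusted p = 0.0119, 0.00697 and 0.0324). Their fold enrichment as deposited was 2.12 and 2.47 against 2.87 and 2.75 for Col2a1, 2.85 and 3.37 against 4.51 and 4.86 for Col9a3 and 2.83 and 3.09 against 3.62 and 3.54 for Col11a2. Each P0 library also had a higher start peak of Col9a3 outside that site, at 4.22 and 4.65, which was not in the fit. The other site of Col2a1 (0.38, adjusted p = 0.174) and that of Col11a2 (0.23, 0.474), which were the higher ones, did not pass. By pileup the called sites of Col2a1 and Col11a2 were lower (−0.66 and −0.75, adjusted p = 0.000705 and 0.00215) and Col9a3, at −0.30, did not pass (0.255). Without centring the calls of Col2a1 (0.29, adjusted p = 0.0703) and Col11a2 (0.28, 0.155) were lost, as they were after quantile normalization (0.28, 0.115 and 0.26, 0.264). Of 9 fibroblast markers 1 was higher at P0 (Fn1, 20 and 16 against 10 and 12), and the ratio was 1.05. Of 19 other stromal and skeletal progenitor markers 10 were, with a ratio of 1.35, and Nes had 24 and 23 against 12 and 15. The start peak of Cd200 in that list fell by 0.74 (SE 0.20, adjusted p = 0.0242) and 1 of 3 start sites of Cd151 rose by 0.87 (SE 0.16, adjusted p = 0.00436), from 3.01 and 2.61 to 3.87 and 4.68, while the other sites, which had higher peaks at P0, did not pass (0.30 and 0.31, adjusted p = 0.383 and 0.347).

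Of 8 pericyte and smooth muscle markers 5 were higher at P0 (ratio 1.40), among them Notch3 with 25 and 24 against 14 and 16, and the start peak of Kcnj8 fell by 0.70 (SE 0.20, limma adjusted p = 0.0359). All 6 start calls named for these lists missed the threshold when either P0 library was left out and the spread came from P8 alone, with limma adjusted p from 0.0612 (Col9a3 without P0 B) to 0.334 (Kcnj8 without P0 A). The log2 differences without P0 A and without P0 B were −0.65 and −0.90 for Cd200, 0.95 and 0.74 for Cd151, 0.43 and 0.64 for Col2a1, 0.73 and 0.95 for Col9a3, 0.46 and 0.58 for Col11a2, and −0.56 and −0.90 for Kcnj8, on either side of the values above. Those of Col11a2 (0.48, adjusted p = 0.0926) and Kcnj8 (−0.41, 0.237) also missed it without P8 A, and Kcnj8 after quantile normalization (−0.77, 0.0658) and with the mean of peaks (−0.70, 0.0601). Of 8 endothelial markers 2 were higher at P0, and Pecam1, Cdh5, Tie1 and Emcn had no start peak in any library. Of 11 blood and macrophage markers 4 were higher at P0, and Ptprc, Itgam, Adgre1, Cd79a, Csf1r and Hbb-bs had no start peak in any library. Of all protein-coding genes 44.9% were higher at P0, and 31.1% had no start peak. Start peaks of Kdr, Tek, Esam and Cldn5 and of Cd14, H2-Aa and H2-Ab1 were held by all 4 libraries. The start of Cd34 thus had a peak in every library, while no library had one at Ptprc or Pecam1, the defining genes of leukocytes and endothelium; the part of such cells in the values of the markers was not tested.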

How the data were processed

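ATAC-seq peaks of 4 libraries (P0 and P8, 2 each) were used as deposited. Per the labels the authors mapped their paired-end reads to mm10 (Bowtie2) and called the peaks of every library by itself (MACS2). The submitters' processing notes also name ChIPseeker, DiffBind and HOMER, and versions are not given in the sources used here. The peak lists that the authors deposited give the pileup (signal) at each summit, not scaled for depth. The authors also deposited its fold enrichment, the ratio of pileup to local background with 1 added to each, and the −log10 p-value and −log10 q-value within the library. A lost column heading was read from its position. A further table of the authors' DiffBind fold changes, p-values and FDR was not used, and 0 columns per library were left unused.

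Overlapping peaks (at least 1 bp) on 21 chromosomes were merged into sites and placed against RefSeq genes of GRCm38.p6, the mm10 build. Depth was read from the background step of the peak lists. Windows were compared by exact permutation tests. Log2 fold enrichment, centred on library medians, was fitted with limma (lmFit, eBayes with trend) over all sites held by all libraries, with Benjamini-Hochberg adjustment at 0.05. The fit recovered 90% of 200 sites changed by 1 log2 unit in simulated data of that size, with 7 calls among the unchanged sites. The simulated noise was independent between libraries and took its spread from the fit itself. Smaller changes, such as those called around the markers, were not simulated. The text names every marker, its start site, its highest site, at most 3 sites per direction held by both libraries of a single passage or called, and, from other lists, non-overlapping or start-called partners and at most 4 genes by difference in peak number (a selection of these is printed). Further sites held at P0 alone, and partners whose passages overlapped, were added after their values were seen. The values of some genes on the other lists are not reported here. Alternatives were other windows, thresholds, matched or equal peak numbers, scalings and each library left out. The markers and lists were chosen with earlier results of these data known. Python 3.11.15, pandas 2.3.3, scipy 1.17.1, matplotlib 3.10.9, R 4.3.3, limma 3.58.1 and, for tests on simulated data, bedtools 2.31.1 were used.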

Additional observations from a re-analysis of the deposited data

How the results depend on the processing

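The ratio of P0 to P8 peaks around the markers stayed above 1 under every alternative except equal numbers of peaks per library, where it was 0.99, and there 2 markers and 23 genes of the other lists (53 as reported) were higher at P0 without overlap and 7.25% of sites were held by both P0 libraries alone (11.0% of all sites). With 100 kb windows 8 markers were higher at P0, against 53.9% of genes. Leaving out a library in turn gave 4 to 9 markers higher at P0 (9 without P0 B), against 47.9 to 66.4% of genes. It gave 0 to 1 higher at P8, against 4.77 to 10.7% of genes, and 56 to 81 genes of the other lists higher at P0. Sites held at P0 alone were then 17.3 to 31.3% (20.5 to 37.2% of all sites). Those held by all libraries were 38.1 to 43.0% (36.3 to 40.8%). Reciprocal overlap of 50% gave 18.7% held by all. At the starts, a limit of 3 kb left 1 marker with P0 peaks alone, and a peak on the start itself left 3 with all 4 libraries and put Lepr and Cd34 at P0 alone. Sites around the markers called higher at P8 and at P0 numbered 1 and 7 without centring, 9 and 5 on pileup and 1 and 1 after quantile normalization, where 12.8%, 22.6% and 5.47% of all sites were called in either direction. With the mean of peaks the counts higher at P8 and at P0 were 3 and 0, against 7.87% of all sites called. At a −log10 q of at least 5, where fewer sites were tested, they were 3 and 0, against 7.19%. Leaving out a library gave 0 to 4 higher at P8 and 0 to 3 higher at P0, against 0 (without P0 A), 0.727 (P0 B), 8.26 (P8 A) and 12.0% (P8 B) of all sites. At the starts the log2 difference changed sign without centring for Nt5e (−0.032) and Cd34 (−0.16), on pileup for Nt5e (−0.39) and Cd44 (0.26), as it did on pileup for the chondrocyte genes Col2a1 (−0.66), Col9a3 (−0.30) and Col11a2 (−0.75), and after quantile normalization for Cd34 (−0.0003). Without 1 library it ran from −0.23 to 0.067 for Cd44, −0.060 to 0.033 for Pdgfrb and −0.040 to 0.20 for Cd34. Apart from where stated, the cause of these shifts was not tested. No paired analysis was possible because the peak names carry no replicate number of the labels. A missing peak says only that none was called at that library's depth. With the libraries matched on background, 12.7% of the markers' sites were held at P0 alone, against 17.0% of all sites.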
